A study of Mus musculus with 4 samples.

Results

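The genes examined were 10 members of the cathepsin family, Ctsa, Ctsb, Ctsc, Ctsd, Ctse, Ctsh, Ctsk, Ctsl, Ctss and Ctsz, of 26089 genes with curated RefSeq transcripts. Their SMAD4 peaks were mapped in alveolar macrophages (AMs), which live in the airspaces of the lung. AMs came from wild-type C57BL/6J mice, adult and without any treatment named in the labels, and were recovered by bronchoalveolar lavage and purified by flow cytometry sorting. SMAD4 binding was profiled by HT-ChIPmentation, in which the transposase Tn5 inserts sequencing adapters into chromatin that is still attached to the antibody beads. Of 4 samples, 2 were SMAD4 libraries and 2 were inputs, prepared without the antibody. The series has no other genotype, time or treatment, so the data held no contrast between conditions to test, and the question was where the cathepsin loci were occupied and how alike both libraries were. Neither the labels nor the methods say whether the libraries came from separate mice or from a pool, and differences between them may therefore be technical. The peak lists hold no RNA values, so the sorted cells could not be checked here against AM marker genes.

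Cathepsins are the proteases of endosomes and lysosomes. They are made as inactive precursors, carried to the lysosome by mannose 6-phosphate receptors and sortilin, and activated there at acid pH. Most are cysteine proteases, Ctsd and Ctse are aspartic proteases and Ctsa is a serine carboxypeptidase. AMs take up surfactant, dead cells and inhaled particles, and digest them in lysosomes. SMAD4 is the common partner of the receptor-activated SMAD proteins in TGFβ and BMP signaling, and its complexes are known to bind enhancers beside lineage-determining factors such as PU.1 and CEBP proteins.

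A peak was counted for a gene when its summit lay in the gene body or within 50 kb of a transcription start site (TSS) of the gene. All 10 genes had such peaks in both libraries. There were 39 peaks in replicate 1 and 46 in replicate 2 (42.5 ± 4.95, SD, n = 2), of 16369 and 19015 peaks in the genome. A peak had a partner when it overlapped a peak of the other replicate by at least 1 bp, and merged partners made a shared region. A partner was found for 32 of the 39 peaks of replicate 1 (82.1%, exact binomial 95% interval 66.5 to 92.5) and for 30 of the 46 of replicate 2 (65.2%, 49.7 to 78.7), a mean of 73.6% ± 11.9 (SD, n = 2). Over all peaks of the libraries the shares were 69.4% and 59.2%, each within the interval of its library. These intervals cover counting error only, since peaks of 1 library are not replicates.

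The partnered peaks formed 29 shared regions, of 10964 in the genome. Every cathepsin gene, 10 of 10, had at least 1 shared region, compared with 39.1% of 20923 protein-coding genes under the same rule. For 8 of the 10, a shared region was nearer to the gene's own TSS than to that of any other gene, which held for 20.0% of protein-coding genes. The exceptions were Ctsa and Ctss. The median was 2 shared regions per cathepsin gene (interquartile range 1 to 3.5) and 0 per protein-coding gene (0 to 1). The median gene lengths were 16.9 kb (10.5 to 28.1) and 16.8 kb (5.66 to 43.8). The protein-coding genes were not restricted to those expressed in AMs or matched to the cathepsin genes. The cathepsin counts describe genes that were chosen with earlier results of the data known, and were not tested.

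**Figure D1:**
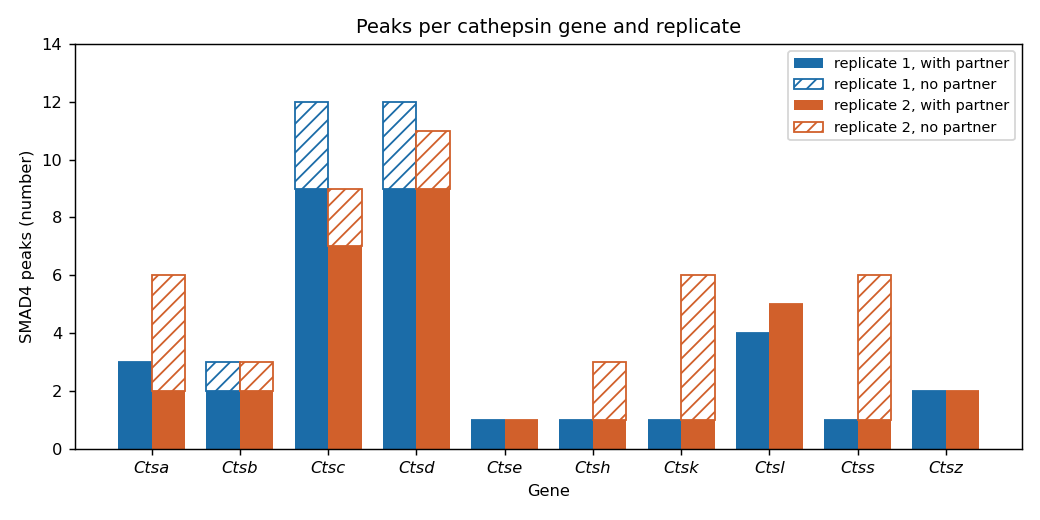
Number of SMAD4 peaks assigned to each cathepsin gene (vertical axis, peaks; horizontal axis, gene), in blue for replicate 1 and orange for replicate 2. Solid bars are peaks with a partner in the other replicate and hatched bars are peaks without one; Ctsc and Ctsd stand above the rest with 9 to 12 peaks, and Ctsk and Ctss share all of their peaks.

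Ctsc and Ctsd held 16 of the 29 shared regions, with 7 and 9. At least 5 shared regions were found at 2 of the 10 cathepsin genes and at 3.33% of protein-coding genes, a minimum chosen after the values were seen. Ctsl had 4, Ctsa, Ctsb and Ctsz had 2 each, and Ctse, Ctsh and Ctsk had 1 each. The region counted for Ctss is the one at Ctsk, because the genes are neighbors on chromosome 3. Of the 29 regions, 21 were nearest to a cathepsin TSS and 8 to another gene. By position of the summit, 4 were in promoters (1 kb upstream to 100 bp downstream of a TSS), 1 in an exon, 10 in introns and 14 in intergenic sequence, and none was at a transcription termination site. Among all shared regions 6.42% were in promoters, 2.49% in exons, 49.3% in introns and 40.5% in intergenic sequence.

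**Figure D2:**
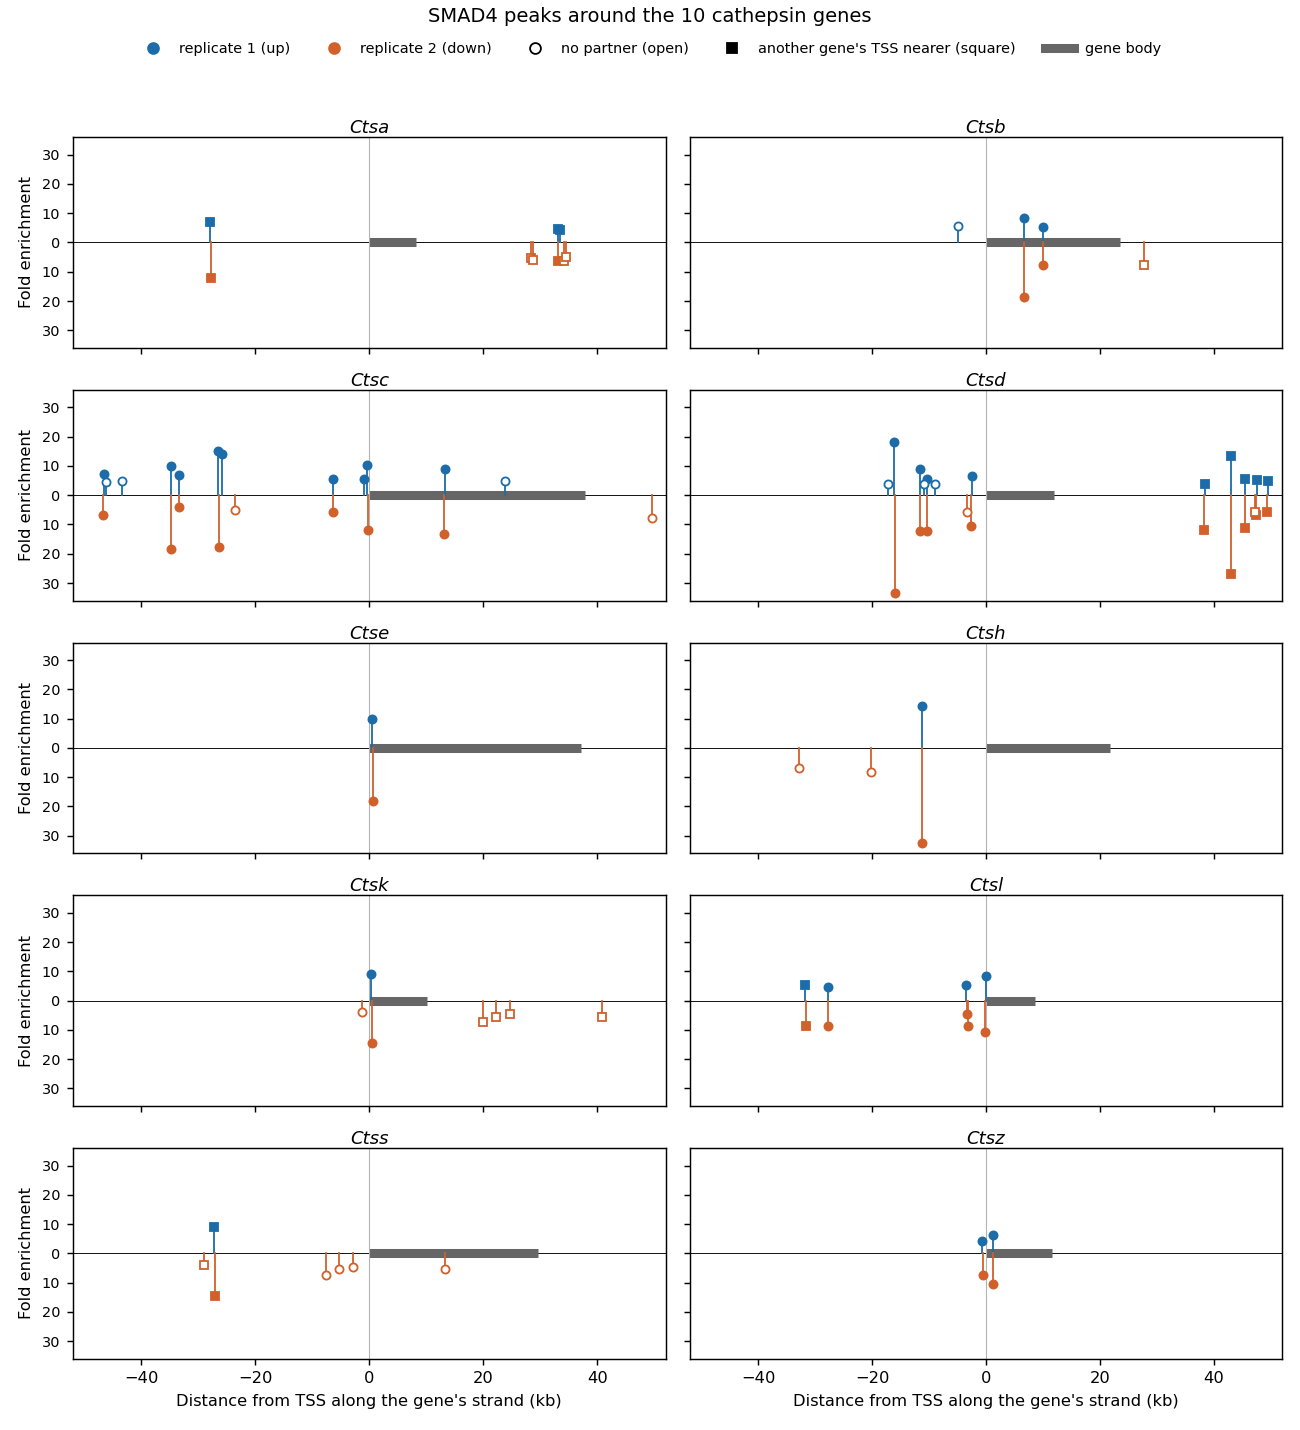
Position and strength of every SMAD4 peak at the cathepsin genes, 1 panel per gene. The horizontal axis is the distance of the summit from the TSS in kb along the gene's strand and the vertical axis is fold enrichment, upward for replicate 1 and downward for replicate 2; open symbols have no partner, squares are nearer to another gene's TSS and gray bars are gene bodies. The tallest stems in both directions are 16.0 kb upstream of Ctsd, and single regions stand at Ctse, Ctsh and Ctsk.

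Strength is given as the authors' fold enrichment over the control level at the summit, and as the number of fragments stacked there, which was solved from the deposited fold and p. Intervals on fragments are exact Poisson 95% intervals and cover counting error only. Occupancy in more cells and higher occupancy per cell cannot be told apart. The genome-wide control level was 2.08 fragments in replicate 1 and 1.22 in replicate 2, so that equal fragment numbers give a higher fold in replicate 2. Sequences of 201 bp centered on the mean of both summits are shown for 5 genes, in the plus orientation of mm10 and read from the GRCm38 reference. Capitals mark matches on either strand to the consensus strings described further on. The sequences are shown for Ctsd and Ctsh, which had the most fragments in replicate 2. Ctsb is shown because its strongest region held none of the strings. At Ctse and Ctsl, also shown, the strongest region lay within 1 kb of the TSS, as it did at Ctsk, which is not shown.

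Among the aspartic proteases, Ctsd encodes the main aspartic endopeptidase of lysosomes (chr7:142375910-142387827, minus strand). It had 12 peaks in replicate 1 and 11 in replicate 2. Its strongest shared region, chr7:142403412-142404115, lay 16.0 kb upstream of the TSS in intergenic sequence. The fold was 18.2 with 60 fragments (45.8 to 77.2) in replicate 1 and 33.4 with 73 fragments (57.2 to 91.8) in replicate 2. This was the strongest cathepsin region in both libraries, and it ranked 587 of the 10964 shared regions by the smaller of its folds. The summits were 99 bp apart. The window at its center, chr7:142403741-142403941, held a PU.1 string at bases 3 to 10 and a SMAD string at bases 83 to 88.
Ctsd: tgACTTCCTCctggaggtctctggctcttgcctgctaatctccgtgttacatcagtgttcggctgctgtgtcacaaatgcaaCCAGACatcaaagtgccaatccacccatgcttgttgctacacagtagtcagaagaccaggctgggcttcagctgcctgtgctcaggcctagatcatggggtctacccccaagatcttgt

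The other regions upstream of Ctsd were weaker. At 2.6 kb upstream the folds were 6.5 and 10.4, with 19 and 22 fragments. At 10.4 kb they were 5.53 and 12.2, with 16 and 26 fragments. At 11.6 kb they were 9.10 and 12.2, with 27 and 26 fragments, and the window there held 2 PU.1 strings and a CEBP string. All 4 upstream regions were nearest to the Ctsd TSS. The gene body itself held no shared region.

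The remaining 5 regions counted for Ctsd lay 38.4 to 49.3 kb downstream of its TSS, in introns of Ifitm10, whose TSS was nearer. Of these, the region at 42.9 kb (chr7:142344588-142345184) had folds of 13.3 and 27.1, with 40 fragments (28.6 to 54.5) and 59 fragments (44.9 to 76.1), and its summits fell on the same base. The other 4 had folds of 3.90 to 5.67 in replicate 1 and 5.60 to 11.7 in replicate 2. One of them, 38.4 kb downstream, differed most between the libraries, with a fold of 3.90 on 11 fragments in replicate 1 and 11.7 on 25 fragments in replicate 2. The outermost lay just inside the 50 kb limit, with summits 49382 bp and 49303 bp from the TSS.

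Ctse encodes the other aspartic protease, found in endosomes of gastric epithelium and of immune cells (chr1:131638314-131675507, plus strand). It had a single peak in each library, and these overlapped. The shared region, chr1:131638565-131639217, lay 554 bp downstream of the TSS in intron 1 of a transcript of 10 exons. Folds were 10.1 with 30 fragments (20.2 to 42.8) and 18.1 with 39 fragments (27.7 to 53.3), and the summits were 101 bp apart. In the window chr1:131638768-131638968, a CEBP string covered bases 105 to 112, starting 4 bp from the center, and a nuclear receptor string (AGGTCA) covered bases 27 to 32.
Ctse: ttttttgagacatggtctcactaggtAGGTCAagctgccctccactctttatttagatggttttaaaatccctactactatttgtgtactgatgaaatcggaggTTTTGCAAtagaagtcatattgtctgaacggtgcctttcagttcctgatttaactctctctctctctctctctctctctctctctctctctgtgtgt

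Just outside the limit of the rule, replicate 2 alone had a peak 50274 bp from the Ctse TSS with a fold of 6.32, and a partnered pair followed at 53300 and 53327 bp with folds of 6.5 and 8.12. Those peaks were nearest to Rab7b.

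Among the cysteine exopeptidases, Ctsc encodes dipeptidyl peptidase I, which activates the serine proteases of leukocyte granules (chr7:88278085-88315861, plus strand). It had 12 peaks in replicate 1 and 9 in replicate 2. All of these were nearest to its own TSS. They made 7 shared regions, 6 upstream of the TSS and 1 in the gene. The strongest, chr7:88251193-88252625, was centered 26.4 kb upstream and was 1433 bp wide, the widest of the cathepsin regions and at the 99.5 percentile of width among all shared regions. It joined 2 peaks of replicate 1 with 1 broad peak of replicate 2. The fold was 14.95 with 45 fragments (32.8 to 60.2) in replicate 1 and 17.6 with 38 fragments (26.9 to 52.2) in replicate 2, and the other peak of replicate 1 inside it had a fold of 13.97.

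The next strongest regions of Ctsc lay both far from the TSS and at it. A distal region 34.8 kb upstream (chr7:88242874-88243556) had folds of 10.1 and 18.5, with 30 and 40 fragments. The promoter region (chr7:88277067-88278044), centered 374 bp upstream of the TSS, had folds of 10.4 and 11.7, with 31 and 25 fragments, but its summits were 206 bp apart. Inside the gene, 13.2 kb downstream of the TSS, chr7:88291077-88291630 had folds of 9.10 and 13.1 with 27 and 28 fragments. Its summit lay in intron 2 of the transcript of 7 exons and in the last of 4 exons of a shorter transcript, outside the coding sequence. The window of that region held 3 CEBP strings.

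The 3 weaker regions of Ctsc, 6.4, 33.4 and 46.6 kb upstream, had folds of 5.67 to 7.15 in replicate 1 and 4.06 to 6.77 in replicate 2. Ctsc held both of the cathepsin regions with a lower fold in replicate 2. At 33.4 kb the fold was 6.95 on 21 fragments in replicate 1 and 4.06 on 8 fragments in replicate 2, and at 46.6 kb it was 7.15 on 21 and 6.77 on 14 fragments.

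Ctsh encodes an aminopeptidase that also takes part in the processing of surfactant protein B in alveolar type II cells (chr9:90054267-90076095, plus strand). It had 1 peak in replicate 1 and 3 in replicate 2. The shared region, chr9:90042769-90043456, lay 11.2 kb upstream in intergenic sequence, and the summits were 4 bp apart. The fold was 14.3 with 43 fragments (31.1 to 57.9) in replicate 1 and 32.5 with 71 fragments (55.5 to 89.6) in replicate 2. In replicate 2 it was close to the strongest Ctsd region, and their intervals overlapped. The window chr9:90043000-90043200 held a PU.1 string at bases 42 to 49, a CEBP string at bases 103 to 110, starting 2 bp from the center, and an M-box, a site for MITF and TFE factors, at bases 129 to 135.
Ctsh: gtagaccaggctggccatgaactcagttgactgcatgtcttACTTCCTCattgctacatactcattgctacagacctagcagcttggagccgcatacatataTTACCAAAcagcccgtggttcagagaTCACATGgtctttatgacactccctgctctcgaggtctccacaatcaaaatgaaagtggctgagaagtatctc

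Both unpartnered peaks of Ctsh were in replicate 2, with a fold of 8.12 on 17 fragments 20.2 kb upstream and of 6.77 on 14 fragments 32.7 kb upstream in an intron of Rasgrf1. The former had the highest fold of all cathepsin peaks without a partner.

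Ctsz encodes the carboxypeptidase cathepsin X (chr2:174427494-174439039, minus strand). It had 2 peaks in each library, and all were partnered. In intron 2 of 6 exons, 1187 bp downstream of the TSS, chr2:174437668-174438005 had folds of 6.18 and 10.4 with 18 and 22 fragments. In the promoter, 578 bp upstream, chr2:174439460-174439833 had folds of 4.23 and 7.22 with 12 and 15 fragments. These were among the weaker cathepsin regions, and both windows held a CEBP string.

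Among the cysteine endopeptidases, Ctsb encodes an abundant lysosomal enzyme with endopeptidase and carboxydipeptidase activity (chr14:63122462-63145923, plus strand). It had 3 peaks in each library. Both shared regions were in intron 1 of 10 exons. The stronger, chr14:63128787-63129491, 6.7 kb downstream of the TSS, had a fold of 8.45 with 25 fragments (16.2 to 36.9) in replicate 1 and of 18.5 with 40 fragments (28.6 to 54.5) in replicate 2, with summits 7 bp apart. It was 1 of 4 cathepsin regions whose window, here chr14:63129089-63129289, held none of the strings searched.
Ctsb: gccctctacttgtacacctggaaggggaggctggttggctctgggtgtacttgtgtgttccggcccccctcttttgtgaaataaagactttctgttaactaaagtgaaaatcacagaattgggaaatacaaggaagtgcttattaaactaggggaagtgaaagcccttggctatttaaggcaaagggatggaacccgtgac

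The weaker Ctsb region, 9.9 kb downstream, had folds of 5.20 and 7.67 with 15 and 16 fragments. Its window held 2 AP-1 strings, a CEBP, a RUNX and a SMAD string. One peak of each library had no partner, with a fold of 5.53 on 16 fragments 4.8 kb upstream in replicate 1 and of 7.67 on 16 fragments 27.7 kb downstream in replicate 2, the latter nearer to Gm51283.

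Ctsl encodes a broad lysosomal endopeptidase (chr13:64361890-64370520, minus strand). It had 4 peaks in replicate 1 and 5 in replicate 2, all partnered, in 4 shared regions. The strongest was in the promoter, chr13:64370301-64370812, centered 112 bp upstream of the TSS. Its folds were 8.45 with 25 fragments (16.2 to 36.9) and 10.8 with 23 fragments (14.6 to 34.5). In the window chr13:64370532-64370732 a CEBP string covered bases 96 to 103, starting 5 bp before the center in this orientation, and a SMAD string covered bases 184 to 189.
Ctsl: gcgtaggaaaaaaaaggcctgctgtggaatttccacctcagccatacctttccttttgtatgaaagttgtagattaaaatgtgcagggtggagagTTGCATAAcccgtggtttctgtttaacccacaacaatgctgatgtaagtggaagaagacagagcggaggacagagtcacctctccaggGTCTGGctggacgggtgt

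The other Ctsl regions had folds of 4.68 to 5.53 in replicate 1 and of 8.57 to 8.77 in replicate 2. That at 3.4 kb upstream had the largest gap between summits of the cathepsin regions, 353 bp. The region at 27.8 kb had a raised control level of 3.92 and 1.85 fragments, so that 22 and 24 fragments gave folds of 4.68 and 8.77. The region at 31.7 kb was nearer to the TSS of Cdk20. Beyond the limit, partnered peaks 51586 and 51617 bp upstream of Ctsl had folds of 8.78 and 14.4 and were also nearest to Cdk20.

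Ctsk and Ctss lie next to each other on chromosome 3 in the same orientation. Ctsk encodes the collagen- and elastin-degrading cathepsin best known from osteoclasts (chr3:95499210-95509387, plus strand). Ctss encodes a cathepsin that remains active at neutral pH and degrades the invariant chain in antigen-presenting cells (chr3:95526786-95556405, plus strand). The locus held 1 peak in replicate 1 and 6 in replicate 2, and each peak fell within the reach of both genes. The shared region, chr3:95499411-95499983, lay 395 bp downstream of the Ctsk TSS in intron 1 of 8 exons, and 27.2 kb upstream of Ctss. Its folds were 9.10 with 27 fragments (17.8 to 39.3) and 14.4 with 31 fragments (21.1 to 44.0). The summits were 167 bp apart, and the window held 1 CEBP string.

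No peak of replicate 1 was nearest to the Ctss TSS. In replicate 2 there were 4, all without a partner. They lay 7.7, 5.3 and 2.9 kb upstream and 13.2 kb downstream, the last in an intron of Ctss. Their folds were 7.22, 5.42, 4.51 and 5.42, on 15, 11, 9 and 11 fragments. In replicate 2 the weakest peak at the background control level stood on 7 fragments, and in replicate 1 on 9 fragments with a fold of 3.25. The other unpartnered peak, 1.4 kb upstream of Ctsk at the end of Arnt, had the lowest fold of the cathepsin peaks, 3.86 on 10 fragments.

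Ctsa encodes the serine carboxypeptidase also called protective protein, which stabilizes lysosomal β-galactosidase and neuraminidase (chr2:164832872-164841032, plus strand). It had 3 peaks in replicate 1 and 6 in replicate 2, none of them in the gene body or nearest to its own TSS. The stronger shared region, chr2:164804883-164805226, was 27.8 kb upstream in the shared promoter of Acot8 and Zswim3, with folds of 7.15 and 12.2 on 21 and 26 fragments. The weaker, 33.1 kb downstream and nearest to Pltp, the gene of phospholipid transfer protein, had folds of 4.55 and 6.32 on 13 fragments in each library. All 4 unpartnered peaks, of replicate 2, were on the same side and nearest to Pltp, with folds of 4.96 to 6.31.

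**Figure D3:**
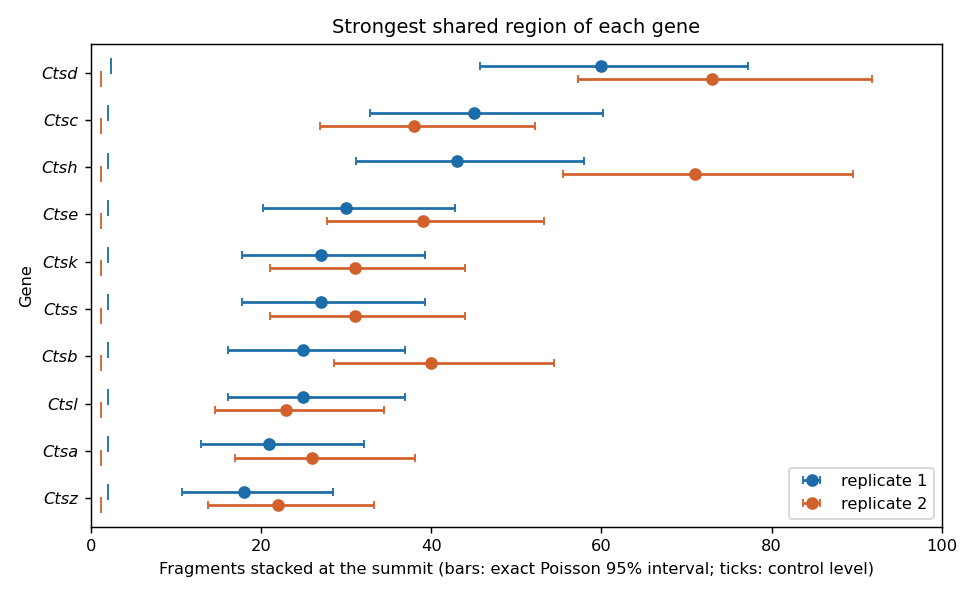
Fragments stacked at the summit of the strongest shared region of each gene (horizontal axis, fragments; vertical axis, gene), with exact Poisson 95% intervals as bars and control levels as short ticks, blue for replicate 1 and orange for replicate 2. Ctsd was highest in both libraries and Ctsz lowest, while Ctsh had 43 fragments in replicate 1 and 71 in replicate 2; the values of Ctsk and Ctss are the same region.

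In order of fragments at the strongest region, taken for each gene as the one with the largest smaller fold, replicate 1 ran Ctsd 60, Ctsc 45, Ctsh 43, Ctse 30, Ctsk 27, Ctsb and Ctsl 25 each, Ctsa 21 and Ctsz 18. In this order the interval of each gene overlapped that of the next. The counts of Ctsc and Ctse lay just below the intervals of the genes before them, Ctsd (45.8 to 77.2) and Ctsh (31.1 to 57.9). Replicate 2 ran Ctsd 73, Ctsh 71, Ctsb 40, Ctse 39, Ctsc 38, Ctsk 31, Ctsa 26, Ctsl 23 and Ctsz 22. Here only the intervals of Ctsh (55.5 to 89.6) and Ctsb (28.6 to 54.5) did not overlap between neighbors. The intervals do not allow for the choice of the strongest region, made among 9 at Ctsd but only 1 at Ctsh. Ctsd was first and Ctsz last in both libraries. The rank of Ctsc in replicate 2 rests on the region taken, since its region 34.8 kb upstream had 40 fragments in replicate 2, as many as Ctsb, against 38 at the region used here.

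By class, the 2 aspartic protease genes had 10 shared regions, 5 of them nearest to the class, with folds of 3.90 to 18.2 in replicate 1 and 5.60 to 33.4 in replicate 2. The 3 cysteine exopeptidase genes had 10, all nearest to the class, with folds of 4.23 to 14.95 and 4.06 to 32.5. The 4 cysteine endopeptidase genes had 7, of which 6 were nearest to the class, and their folds reached 9.10 and 18.5. Ctsa, the serine carboxypeptidase, had 2, neither nearest to its own TSS, with folds of 4.55 and 7.15 in replicate 1 and 6.32 and 12.2 in replicate 2. No class was tested against another.

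A shared region centered within 1 kb of the TSS was present at 5 of the 10 genes (Ctsc, Ctse, Ctsk, Ctsl and Ctsz), compared with 3.95% of protein-coding genes. This distance was chosen after the values were seen. At Ctsb, Ctsd and Ctsh the nearest shared regions lay 6.7, 2.6 and 11.2 kb away. Promoter-proximal regions were not the strongest of the family, with folds of 4.23 to 10.4 in replicate 1 and 7.22 to 18.1 in replicate 2.

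Compared with all peaks, cathepsin peaks were of ordinary strength. Their median fold was 5.67 in replicate 1 and 7.67 in replicate 2, against 5.53 and 6.77 over all peaks. Partnered cathepsin peaks had medians of 6.73 and 11.1, and unpartnered ones of 4.55 and 5.86, with no more than 16 and 17 fragments. Ranked by the smaller fold of both libraries, the 29 regions had a median at the 49.7 percentile of all shared regions, from 4.23 to 94.7, with 2 in the top 10%. The median width was 505 bp and the median GC content 46.3%, against 440 bp and 43.8% over all shared regions.

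**Figure D4:**
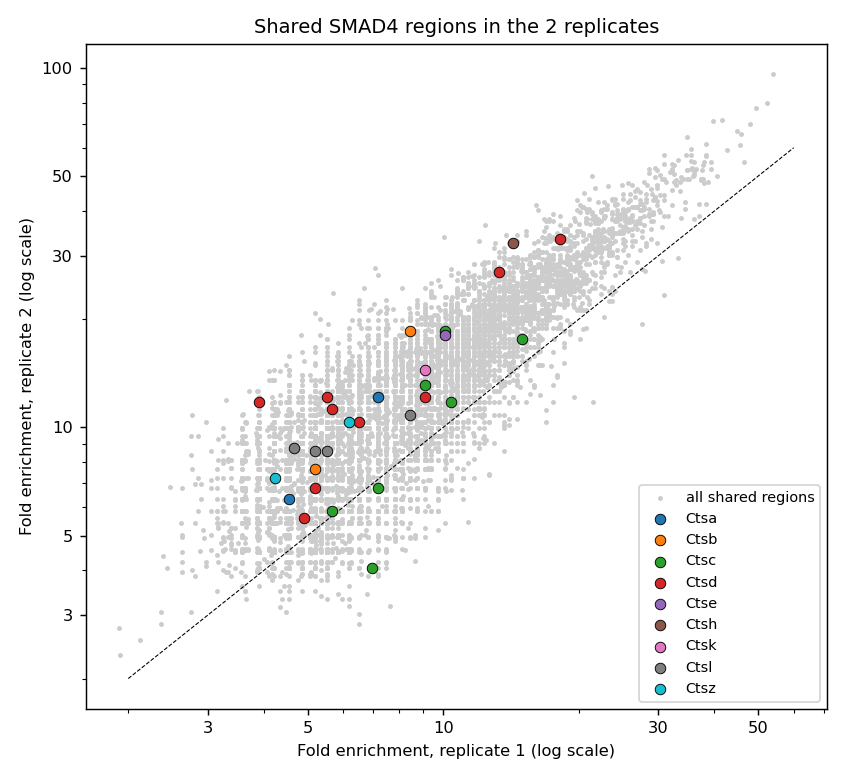
Fold enrichment of each shared region in replicate 1 (horizontal axis, log scale) and replicate 2 (vertical axis, log scale), gray for all 10964 and colored for the cathepsin genes; the dashed line marks equal folds. Cathepsin regions lie across the main part of the cloud, 27 of 29 above the line, with the strongest of Ctsd and Ctsh toward the upper right and 2 of Ctsc below the line.

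The fold was higher in replicate 2 at 27 of the 29 cathepsin regions and at 87.2% of all shared regions. Fragments are not divided by the control level but scale with depth, and replicate 1 was about 1.69 times as deep as replicate 2. They were more numerous in replicate 2 at 19 regions, fewer at 9 and equal at 1, while 47.1% of all shared regions had more in replicate 2. Spearman's rho between the folds of both libraries was 0.750 over the 29 regions and 0.782 over all shared regions, given as a description, since regions of a library share its depth. Summits of the partners were a median of 77 bp apart at cathepsin regions and 49 bp apart over all.

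The windows around the summits were searched for 11 consensus strings on both strands. The CEBP string (TTGCNNAA or TTACNNAA) was found in 16 of the 29 windows (55.2%, exact binomial 95% interval 35.7 to 73.6), against 56.1% of all shared regions and 8.98% of windows centered on protein-coding TSSs. All 5 regions within 1 kb of a cathepsin gene's own TSS held it, as did 5 of 7 at Ctsc and 2 of 9 at Ctsd. Cathepsin regions thus held CEBP strings at the rate of SMAD4 regions in general. A SMAD string (GTCTGG) was in 6 windows (20.7%, 8.0 to 39.7), against 11.2% of all shared regions, within the interval. Of windows centered on protein-coding TSSs, 12.5% held it, so it was not more frequent at SMAD4 regions in general than at TSSs. Among the cathepsin regions the SMAD string was present at Ctsb, Ctsc, Ctsd, Ctsl and Ctsz.

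PU.1 strings (GAGGAAGT) were in 3 windows, 2 at Ctsd and 1 at Ctsh, or 10.3% against 8.0% of all shared regions. AP-1 strings (TGAGTCA) were in 4 (13.8% against 8.91%) and RUNX strings (TGTGGT) in 5 (17.2% against 26.4%). The nuclear receptor string (AGGTCA) was in 3 (10.3% against 15.4%), at Ctsd and Ctse. The M-box (TCACATG), the E-box (CACGTG) and the STAT string (TTCNNNGAA) were in 2 windows each (6.90%, against 6.01%, 3.65% and 8.06%), and the ETS string (CAGGAAGT), which differs from that of PU.1 by its starting letter, in 1 (3.45% against 5.62%). The RBPJ string (GTGGGAA) was in 0 of 29, which allows a share of up to 11.9% (exact binomial), and in 4.14% of all shared regions. A match is a description of letters and does not show that the factor was bound.

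**Figure D5:**
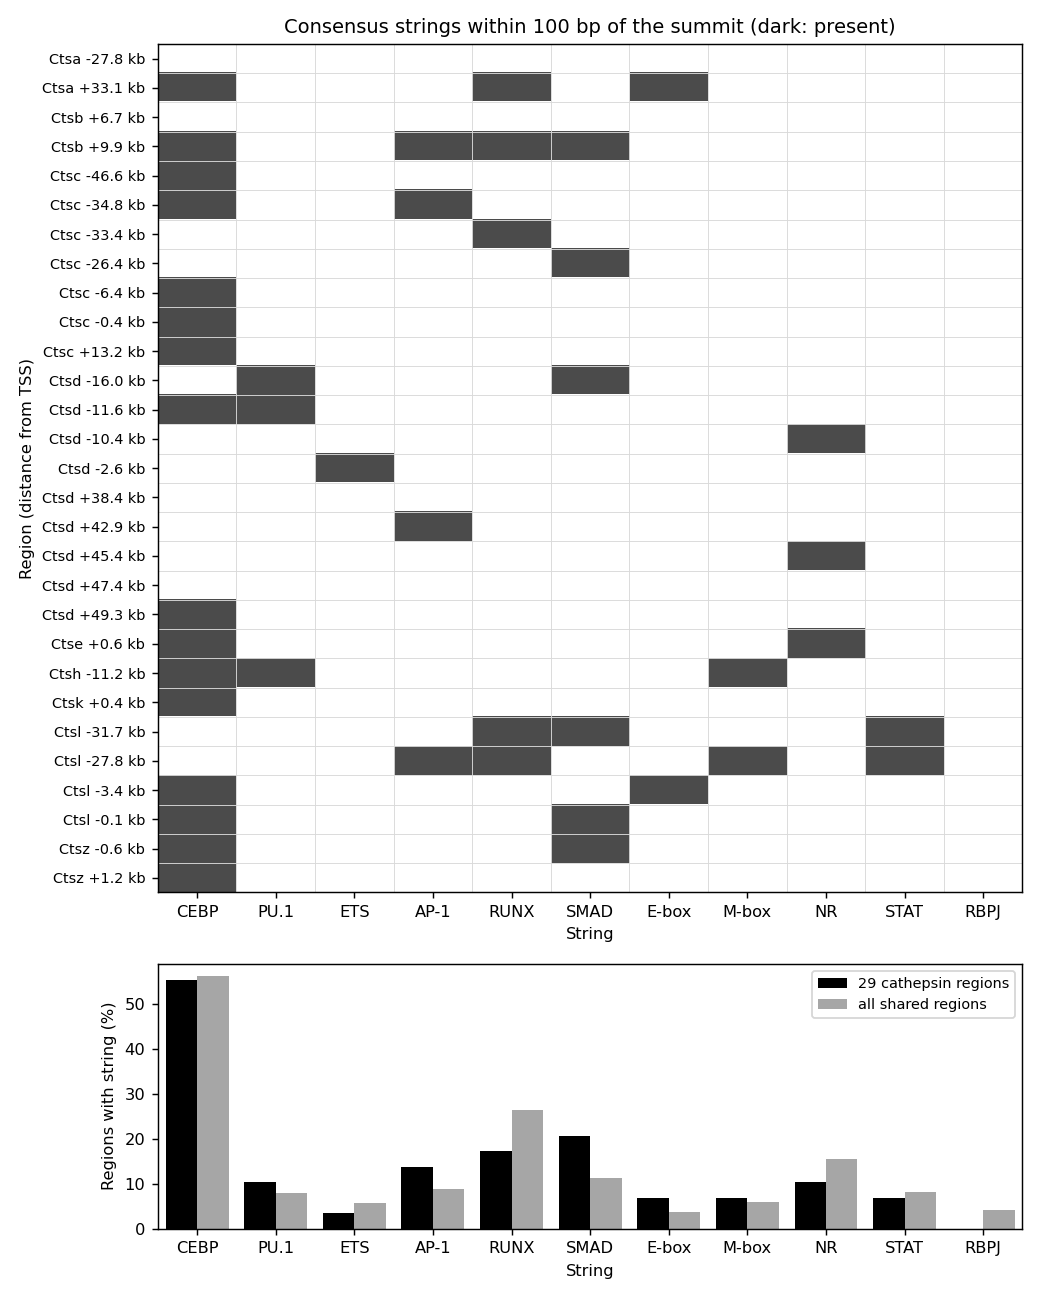
Consensus strings in the 29 cathepsin regions. The upper panel has a row per region (gene and distance from the TSS in kb) and a column per string, with dark cells where the string lies within 100 bp of the summit; the lower panel gives the percent of regions with each string, black for the cathepsin regions and gray for all shared regions. NR is the nuclear receptor string. CEBP is the most frequent column, in 16 rows and at nearly the same height in both bars, and RBPJ is empty.

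Promoters of the RefSeq table (250 bp before to 50 bp after a TSS) were listed for 7 of the 10 genes, as 8 promoters. The E-box, the core of the site that TFEB and TFE3 read in lysosomal genes, was in 3 of the 8 (Ctsa, Ctsd and Ctsl), against 7.15% of 32851 promoters in the table. Of these genes only Ctsl had a SMAD4 region at its promoter. CEBP strings were in 2 of the 8, the promoters of Ctsk and Ctsl, against 18.5%.

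Genes around the cathepsin pathway were taken from lists drawn up with earlier results known. Over all protein-coding genes, 39.1% had a shared region and 20.0% had one nearest to their own TSS. No list was tested against these shares. Of 12 other cathepsin genes, 3 had a shared region and 1 had one nearest to its own TSS. This was Cts3, a placental cathepsin, with folds of 8.06 and 7.24. Of 12 genes of cathepsin inhibitors (cystatins, stefins and serpins), 6 had a shared region and 4 had one nearest to their own TSS. The strongest were at Csta2, with folds of 22.4 and 30.7 on 68 and 67 fragments 7.8 kb from the TSS, and at Serpinb1a, with 14.3 and 23.9. Stfa3 (5.53 and 9.48) and Cst3, the gene of cystatin C (5.53 and 6.77), had weaker ones. Csta2 and Stfa3 belong to a cluster of near-identical genes. Reads that fit several copies may have been lost there, because the authors filtered alignments by quality.

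Of 10 genes for processing, sorting and regulation of lysosomal enzymes, 8 had a shared region nearest to their own TSS, against the 20.0% of protein-coding genes, and Gnptg and Tfe3 had none. Gnptab, which encodes the enzyme that builds the mannose 6-phosphate tag, had 6, the strongest with folds of 23.4 and 30.2 on 71 and 66 fragments in an intron. At Psap, the gene of prosaposin, the strongest had folds of 16.3 and 18.1, and at Sort1, which encodes sortilin, 11.1 and 14.9. Mitf had 6 (strongest 12.0 and 15.8) and Tfeb 3 (9.75 and 13.1), both encoding factors that regulate lysosomal genes. The receptor genes M6pr (4.88 and 5.87, at the promoter) and Igf2r (5.85 and 9.48) and the gene of legumain, Lgmn (6.18 and 8.57), which processes cysteine cathepsins, had weaker regions.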

How the data were processed

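SMAD4 binding in AMs was measured in 2 HT-ChIPmentation libraries, with 2 inputs that have no values of their own here. Adapters were removed by the authors with Cutadapt and reads were mapped to mm10 with Bowtie2. PICARD and samtools left deduplicated, properly paired reads that passed a filter on alignment quality. MACS3 called peaks per sample against input at a q-value limit of 0.05. Each deposited peak carries a fold ratio of summit pileup over control, a −log10 p-value and a −log10 q-value. The deposited score is a whole-number form of the −log10 q and was not used. The labels and the methods name different suppliers for the SMAD4 antibodies.

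Fold is pileup plus 1 over control plus 1 and p is the Poisson tail, so both were solved for a whole pileup and a control level (largest error in −log10 p, 0.00052 and 0.00054). Read totals were not used here. From the background control levels, replicate 1 was about 1.69 times as deep as replicate 2, taking the narrowest peak as the fragment length. Genes, TSSs and nearest genes came from curated RefSeq transcripts of GRCm38. The scripts used Python 3.11.15, numpy 2.4.6, pandas 2.3.3, scipy 1.17.1, pysam 0.24.0 and matplotlib 3.10.9, and were tested on simulated data.

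Samples were grouped by their labels. Replicate numbers follow accession order and pair nothing. Without a contrast no test was run, and counts are given beside those over all genes. The members, gene lists and strings were chosen with earlier results of these data known. All 10 members are named, each with its strongest shared region (largest smaller fold), and related genes are named where a shared region was nearest to their own TSS. The alternatives were distances of 10 and 100 kb, a q limit of 0.001, a minimum fold of 5, all RefSeq transcripts, summits within 100 bp, reciprocal overlap of 50%, windows of 50 and 200 bp on each side and each replicate alone.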

Additional observations from a re-analysis of the deposited data

How the results depend on the processing

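Of 60 alternative values for 8 summary counts and shares, 52 kept within 1.5 times the count, or within the interval of the share, as reported. Some of the 60 could not fall, since a distance of 100 kb or all RefSeq transcripts can only add peaks, regions and genes with a shared region. At a distance of 10 kb the cathepsin peaks were 16 and 19, the shared regions 12 and those with a CEBP string 10. The share of replicate 1 peaks with a partner was 92.6% at a minimum fold of 5, 53.9% with summits within 100 bp and 59.0% with a reciprocal overlap of 50%, and that of replicate 2 was 45.7% with summits within 100 bp. Genes with a shared region were 7 at 10 kb, where Ctsa, Ctsh and Ctss had none, and 7 with summits within 100 bp, where Ctse, Ctsk and Ctss had none. The share over all protein-coding genes was not computed for these settings, and the 39.1% given above belongs to the main rule only. Leaving out each replicate and counting the peaks of the other gave 10 of 10 genes with a peak. From 8 to 9 genes had a peak nearest to their own TSS. A CEBP string was counted for 16 of the 39 peaks of replicate 1 and 22 of the 46 of replicate 2. These are peaks of single libraries, unlike the 16 of 29 shared regions. The 10 of 10 was fixed in advance, because each shared region holds a peak of both replicates. The 9 genes without replicate 1 include Ctss, whose own peaks were all in replicate 2. For the regions of single genes, 66 of 90 alternative counts stayed within 1.5 times. No paired analysis was possible because there is 1 condition and no test. A peak needed at least 9 fragments in replicate 1 and 7 in replicate 2 at the background level, so weaker occupancy was not detectable at this depth.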
